A study of Bos taurus with 8 samples.

Results

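The arrestin family was examined in bovine blastocysts exposed to AAPH, an azo compound that decomposes to peroxyl radicals, and in unexposed controls. Its 7 measured genes were the beta arrestins ARRB1 and ARRB2 and the alpha arrestins ARRDC1, ARRDC2, ARRDC3, ARRDC4 and TXNIP. Every embryo array probe with 1 of these symbols in the platform annotation was taken, which gave 7 of 15227 annotated symbols and 12 of 43794 probes, 2 for beta and 10 for alpha arrestins. ARRB1, ARRB2, ARRDC2 and ARRDC3 had 1 probe each, ARRDC1 and ARRDC4 had 2, and TXNIP had 4. The family was singled out because the AAPH over control ratios of ARRB2 and TXNIP in these arrays had been seen. Those ratios are therefore given as descriptions, with no test of the members apart from the limma analysis across all probes.

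AAPH pools came from in vitro fertilized embryos cultured with 0.01 mM AAPH from day 3 to day 7, and control pools from embryos cultured in the same media without it. All embryos derived from slaughterhouse ovaries, and each pool held 10 blastocysts collected 196 hours after fertilization. The 4 pools per treatment were compared on 8 two-colour arrays after repeated rounds of RNA amplification. AAPH RNA was in Cy5 on arrays 1, 2, 7 and 8 and in Cy3 on arrays 3, 4, 5 and 6. Arrays of opposite dye orientation were averaged as 4 swap pairs, matched from the data, since the labels do not say which arrays share extracts. A swap pair is taken to stand for 1 AAPH pool and 1 control pool, so n = 4. The match was weakest for pair 3, at a correlation of 0.146 over kept probes. In pooled embryos, fewer cells of a type and less RNA per cell cannot be told apart.

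Beta arrestins bind phosphorylated G protein-coupled receptors at the cell surface, end their signalling to G proteins, and hand them to clathrin and its adaptor complex for uptake. They also carry kinases such as ERK and JNK and the kinases upstream of them. Alpha arrestins share the arrestin fold and mostly carry PPxY motifs that recruit HECT ubiquitin ligases of the NEDD4 family. TXNIP in addition binds reduced thioredoxin and restrains glucose uptake, and in mammalian cells its transcription follows glucose through MLX and its partners. These proteins join receptor traffic, redox control and sugar supply, all of which matter to a preimplantation embryo.

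Signal counted as above background when it lay more than 3 median absolute deviations over the median negative control spot. Kept probes reached this in 1 treatment or both on 4 arrays or more. Of all probes 32196 were kept, among them 9 of the 12 arrestin probes. Per array, 13954 to 34347 probes reached it with AAPH RNA and 14112 to 35841 with control RNA. The low counts, 13954 to 19918, were all in Cy5 on slides 78 and 79, whose arrays make up swap pairs 3 and 4. Cy3 on the same arrays gave 27618 to 29679, and both dyes on slide 26 gave 30084 to 35841. ARRB1, ARRB2, ARRDC3 and 1 TXNIP probe reached it on all 8 arrays with RNA of either treatment. The 3 other TXNIP probes were not kept. EMBV3_30391 and EMBV3_43170 reached it on 0 arrays with either RNA, and EMBV3_37924 on 1 array with AAPH RNA and 0 with control RNA. No fold is given for these 3 probes, and TXNIP below means probe EMBV3_31733.

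Of blastocyst lineage markers, 13 of 14 trophectoderm symbols, 7 of 8 inner cell mass symbols and 7 of 8 hypoblast symbols had a kept probe. The hypoblast factor GATA6 had none. Over all genes 12406 of 15227 symbols had a kept probe, and so did 5 of 5 blood and immune markers. A kept probe thus does not show a cell type. Ratios were positive for 3 and negative for 10 trophectoderm genes, 3 and 4 inner cell mass genes and 4 and 3 hypoblast genes. Fibroblast and connective tissue markers were kept for 9 of 9 symbols, and 8 of the 9 had a positive AAPH over control ratio, with a median of 0.75. At an unadjusted limma p under 0.05, 8 were higher in AAPH, beside 7.67% of all genes. LUM was at 2.86 ± 1.52, the highest mean log2 ratio of all kept probes. VIM was at 1.86 ± 0.62 and COL3A1 at 1.61 ± 0.76, while TWIST1 was at -0.02 ± 0.13 (SD, n = 4). The log2 of this list's summed linear signal spanned 12.6 to 15.2 in AAPH pools and 12.2 to 13.4 in control pools. Such a sum follows the brightest probes most. The list's median ratio was 1.46, 0.95, 0.65 and 0.23 in swap pairs 1 to 4, highest in pair 1. Cumulus and granulosa markers, from cells that surround the oocyte, were kept for 7 of 8 symbols, with 6 positive and 1 negative ratio and a median of 0.14. The log2 of their summed linear signal spanned 10.1 to 11.3 in AAPH pools and 9.98 to 10.3 in control pools. PTX3 was at 1.10 ± 0.91, TNFAIP6 at 0.85 ± 0.95 and INHBA at 0.50 ± 0.47 (mean log2 ratio, SD, n = 4). These 3 had an unadjusted limma p under 0.05, beside 7.67% of all genes higher in AAPH. The other kept genes of the list ran from -0.09 to 0.14, and AMH had no kept probe. TNFAIP6 was at 1.91, 0.00, 1.40 and 0.10 in swap pairs 1 to 4, with control RNA above background on 5 arrays, and PTX3 was at 0.09 in pair 4. With limma over all kept probes 0 genes of these lists passed, and the part of either list in the arrestin values below was not tested.

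ARRB2, the broadly expressed beta arrestin 2, had less signal in AAPH pools than in the control pool of the same swap pair in 4 of 4 pairs. Its values all come from probe EMBV3_02329, and whether that probe measures ARRB2 transcripts alone was not tested. Signals are log2 values that can be compared between pools for 1 probe, but not between probes. In swap pairs 1 to 4, ARRB2 signal was 10.87, 10.29, 8.50 and 9.48 in AAPH pools, and 11.56, 11.04, 9.88 and 10.72 in control pools. Pair 1 was highest and pair 3 lowest in both treatments, and the 2 ranges overlapped, spanning 2.37 log2 units in AAPH and 1.68 in control. The within-pair log2 ratio of AAPH over control was -0.69, -0.76, -1.39 and -1.24 in pairs 1 to 4. Its mean was -1.02 ± 0.34 (SD, n = 4), or 49.4% of the control signal.

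Among the 32196 kept probes, the mean ratio of ARRB2 ranked 6 from the lowest, and 0.0186% of kept probes had a mean log2 ratio of -1 or less. ARRB2 was lower in AAPH on 8 of 8 arrays, as were 1.98% of kept probes. With limma and Benjamini-Hochberg adjustment over all kept probes, 0 probes (0%) had an adjusted p under 0.05, and 0 of the 9 arrestin probes did. At an unadjusted p under 0.05 there were 4354 probes (13.5%), 1830 higher (5.68%) and 2524 lower (7.84%) in AAPH. With every array of AAPH or of control RNA required above background, 70 of 14304 probes (0.489%) passed, 35 of them lower in AAPH (0.245%), ARRB2 among these. Because ARRB2 was chosen from this contrast, its place in the distribution supports nothing further.

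**Figure D1:**
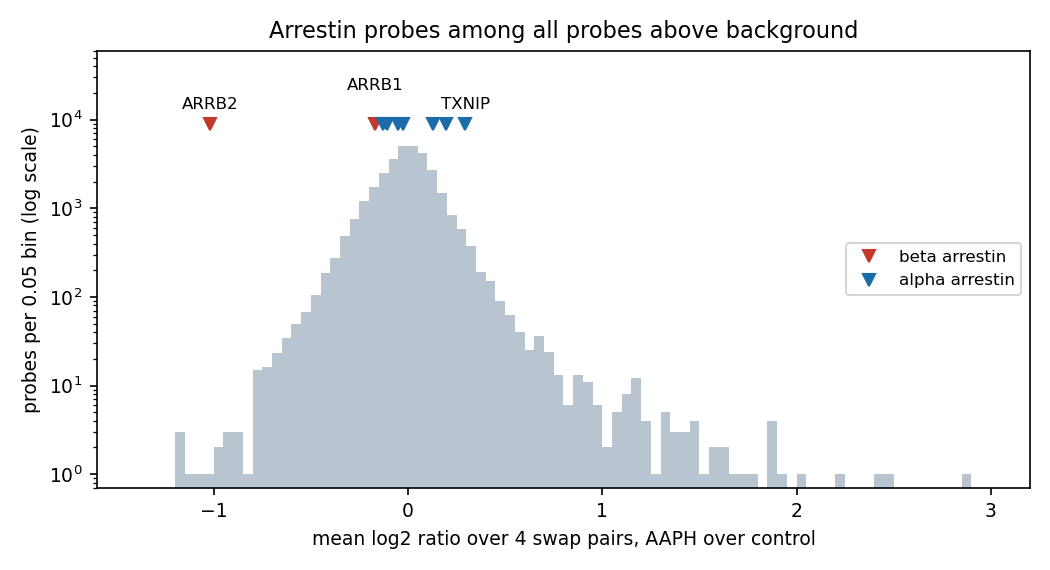
Number of kept probes by mean log2 ratio of AAPH over control over 4 swap pairs (grey bars, log scale), with triangles at the 2 beta arrestin probes (red) and the 7 kept alpha arrestin probes (blue). ARRB2 lies at -1.02, far left of the bulk, while the other 8 probes lie between -0.17 and 0.29.

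The size of the ARRB2 ratio differed between dye orientations and between slides, but its sign did not. On the arrays with AAPH in Cy5 the log2 ratio was -1.13, -1.12, -1.66 and -1.41, and on those with AAPH in Cy3 it was -0.26, -0.39, -1.11 and -1.06. The 2 sets of arrays do not overlap, and their means were -1.33 with AAPH in Cy5 and -0.71 with AAPH in Cy3. Averaging within swap pairs cancels a dye effect only where it is equal on both arrays of the pair. The gap between dyes was wider in pairs 1 and 2 than in pairs 3 and 4. In pairs 3 and 4 AAPH was in Cy5 on slide 79 and in Cy3 on slide 78, so dye and slide cannot be told apart there. Slides 78 and 79, with swap pairs 3 and 4, had a mean ratio of -1.31, and slide 26, with pairs 1 and 2, had -0.72. The difference between slides was -0.59 and did not pass over all kept probes (limma slide term, adjusted p = 0.423). In the authors' deposited table of log2 ratios, ARRB2 was at -1.17, -1.15, -0.30, -0.40, -1.03, -0.99, -1.59 and -1.31 on arrays 1 to 8.

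ARRB2 also varied between pools of 1 treatment more than most probes. The SD of its signal over 4 pools was 1.03 in AAPH and 0.70 in control, against medians over kept probes of 0.18 in AAPH and 0.17 in control. These SDs stood at percentile 99.5 in AAPH and 97.8 in control. The order of the pools, highest in pair 1, then 2, 4 and 3, was the same in both treatments. ARRDC3 also had 1 order in both, with pair 3 highest and pair 1 lowest, and so did 5636 kept probes in all (17.5%), 782 of them with the order of ARRB2. The AAPH and control signals of a swap pair came from the same 2 arrays. The shared order may thus belong to the arrays or to the pools, which cannot be told apart.

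**Figure D2:**
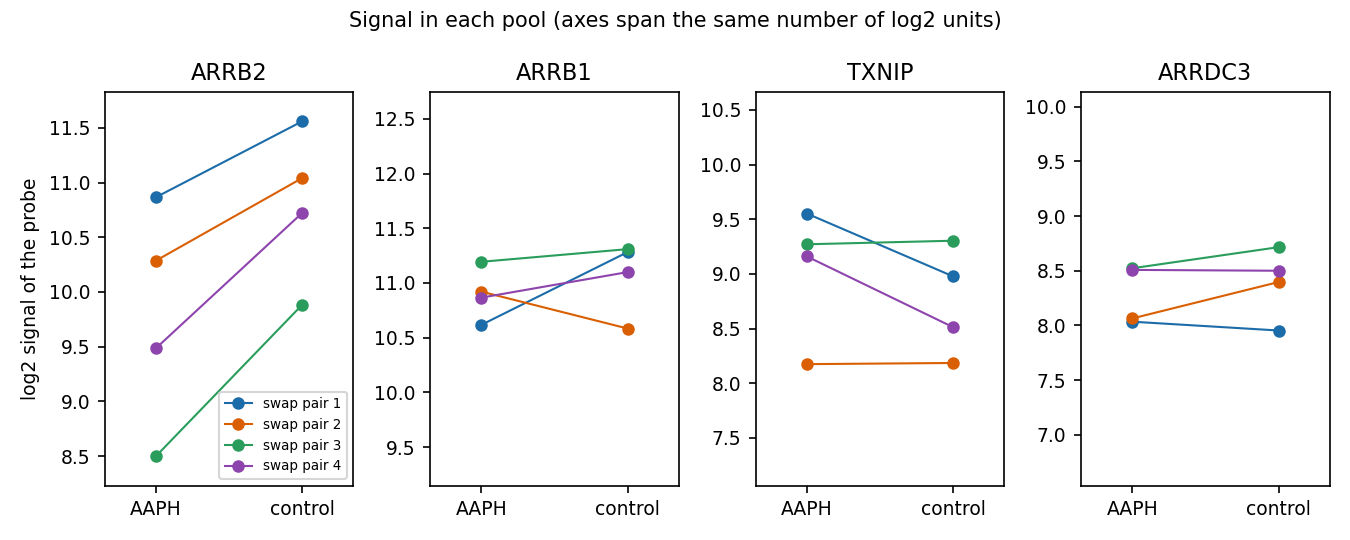
Log2 signal of the ARRB2, ARRB1, TXNIP and ARRDC3 probes in each pool, with AAPH left and control right in each panel, and a line joining the 2 pools of a swap pair. All 4 ARRB2 lines are lower at AAPH and do not cross. The ARRDC3 lines do not cross either but differ in direction, and lines of ARRB1 and of TXNIP cross.

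ARRB1, the other beta arrestin, did not show this pattern. Its signal was 10.62, 10.92, 11.19 and 10.87 in AAPH pools of pairs 1 to 4, and 11.28, 10.58, 11.31 and 11.10 in control pools. The groups overlapped, and the pair that was lowest in AAPH was among the high ones in control. Its log2 ratio was -0.67, 0.34, -0.12 and -0.23, a mean of -0.17 ± 0.41 (SD, n = 4), with the positive value in pair 2. Without pair 1 the mean was -0.00397, and without pair 2 it was -0.338. ARRB2 minus ARRB1 was -0.03, -1.09, -1.27 and -1.0 in pairs 1 to 4, so both beta arrestins had nearly the same ratio in pair 1 and differed by about 1 log2 unit in the other 3.

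TXNIP, the thioredoxin-binding alpha arrestin, had 9.55, 8.17, 9.27 and 9.16 log2 signal in AAPH pools of pairs 1 to 4, and 8.98, 8.19, 9.30 and 8.51 in control pools. Pair 2 was lowest in both treatments and the ranges overlapped. Its log2 ratio was 0.57 in pair 1 and 0.65 in pair 4, but -0.01 in pair 2 and -0.03 in pair 3. The mean of 0.29 ± 0.37 (SD, n = 4) is thus made of 2 pairs with a clear positive ratio and 2 near 0. With AAPH in Cy5, arrays 1, 2, 7 and 8 gave 0.57, -0.03, 0.12 and 0.65 in pairs 1 to 4. With AAPH in Cy3, arrays 3, 4, 5 and 6 gave 0.58, 0.01, -0.18 and 0.65. Arrays were matched into pairs by their ratios over all kept probes, so likeness within a pair is no independent support for the split. Each slide group held 1 pair of either kind, with means of 0.31 on slides 78 and 79 and 0.28 on slide 26. TXNIP also varied widely between pools, with SDs of 0.60 in AAPH and 0.49 in control, at percentiles 96.4 in AAPH and 92.7 in control among kept probes.

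ARRDC4, the alpha arrestin closest to TXNIP in glucose control, had 2 kept probes with opposite mean ratios. Probe EMBV3_06853 had a log2 ratio of 0.11, -0.02, 0.43 and 0.26 in pairs 1 to 4 (mean 0.20 ± 0.20, SD, n = 4), and probe EMBV3_26713 had -0.22, -0.19, -0.04 and -0.07 (mean -0.13 ± 0.09). Their signals stood near background. With RNA of either treatment EMBV3_06853 exceeded background on 6 arrays and EMBV3_26713 on 5, and on neither array of pair 3 did control RNA exceed it for EMBV3_06853. Single-array ratios of EMBV3_06853 ran from 0.46 to 1.51 with AAPH in Cy5 and from -0.72 to -0.35 with AAPH in Cy3. For EMBV3_26713 they ran from -0.52 to -0.24 with AAPH in Cy5 and from 0.01 to 0.16 with AAPH in Cy3. The sign on a single array thus followed the dye for both probes, in opposite directions.

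ARRDC1, which sits at the plasma membrane and buds off vesicles with TSG101, had 2 kept probes at ratios near 0. EMBV3_30941 was at 0.04, 0.06, -0.03 and -0.19 in pairs 1 to 4 (mean -0.03 ± 0.11, SD, n = 4), and EMBV3_30637 at -0.01, -0.03, 0.08 and -0.24 (mean -0.05 ± 0.14). Their signals exceeded background on 6 arrays for EMBV3_30941 and 5 for EMBV3_30637, with RNA of either treatment. In pair 3, control RNA exceeded background for EMBV3_30637 on 0 arrays, so the ratio of 0.08 there is set against a signal not above background. For EMBV3_30941 the sign on single arrays again followed the dye, from -0.73 to -0.34 with AAPH in Cy5 and from 0.35 to 0.61 with AAPH in Cy3. In all, 3 of the 9 kept arrestin probes had 1 sign on every array with AAPH in Cy5 and the other on every array with AAPH in Cy3, against 12.2% of all kept probes.

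**Figure D3:**
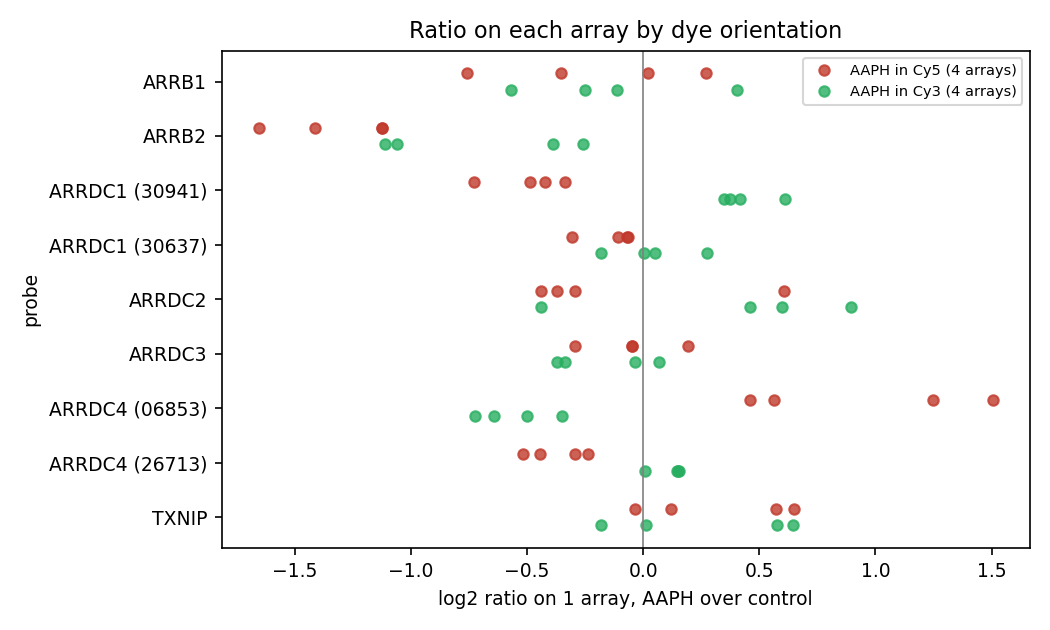
Log2 ratio of AAPH over control on each of 8 arrays for the 9 kept arrestin probes, with AAPH in Cy5 in red and AAPH in Cy3 in green. ARRB2 is below 0 on all 8 arrays, while ARRDC1 probe EMBV3_30941 and both ARRDC4 probes fall on opposite sides of 0 by dye.

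ARRDC2 and ARRDC3 did not differ between the treatments in 1 direction. ARRDC2, a little-studied alpha arrestin, had log2 signals of 7.80, 8.25, 8.03 and 7.77 in AAPH pools and 8.24, 7.64, 7.77 and 7.69 in control pools. Its ratio was -0.44, 0.60, 0.26 and 0.08 in pairs 1 to 4, a mean of 0.13 ± 0.43 (SD, n = 4), and its signal exceeded background on 7 arrays with RNA of either treatment. ARRDC3, described in human cells as an adaptor for the beta-2 adrenergic receptor and for integrin beta-4, had signals of 8.03, 8.06, 8.52 and 8.51 in AAPH pools and 7.95, 8.40, 8.72 and 8.50 in control pools. Both treatments had their higher ARRDC3 signals in pairs 3 and 4. Its ratio was 0.08, -0.33, -0.19 and 0.01, a mean of -0.11 ± 0.19.

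**Figure D4:**
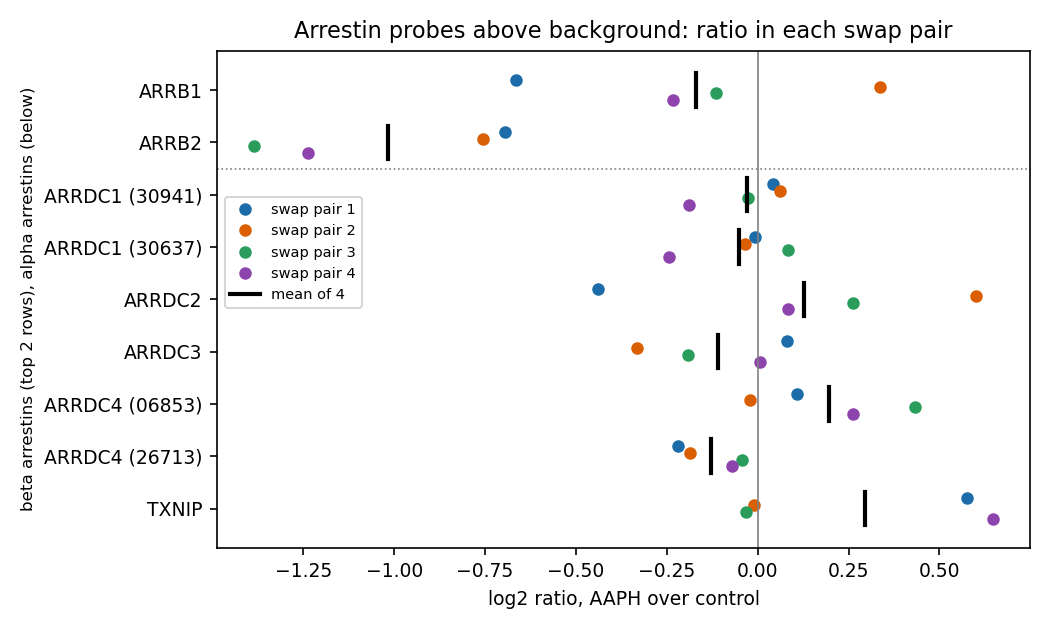
Log2 ratio of AAPH over control in each of 4 swap pairs (points) and their mean (black bar) for the 9 kept arrestin probes, beta arrestins above the dotted line and alpha arrestins below. ARRB2 is the probe whose 4 points lie at -0.69 or lower. TXNIP has points at 0.57 and 0.65 and 2 near 0.

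With kept probes averaged per gene and genes averaged per class, the beta mean was -0.68, -0.21, -0.75 and -0.74 in pairs 1 to 4, and the alpha mean was 0.04, 0.03, 0.05 and 0.12. Beta minus alpha was -0.65 ± 0.28 (SD, n = 4), a difference that rests on genes chosen for these very ratios. Without ARRB2 it is ARRB1 minus the alpha mean, which was -0.23 ± 0.42 and positive in pair 2. Without TXNIP the alpha mean was 0.0027 ± 0.08, below 0 in pairs 1 and 4, and beta minus alpha was -0.60 ± 0.25. No statement on beta arrestins as a class follows from 2 genes with 1 probe each. Over the 9 kept probes, 3 had a positive and 6 a negative mean ratio, with a median of -0.05, beside a median of 0.00 over all kept probes. Lower in 4 of 4 pairs were 2 of the 9 (ARRB2 and ARRDC4 probe EMBV3_26713) beside 10.7% of all kept probes, and higher in 4 of 4 pairs were 0, beside 11.5%. Together 2 of 9 had 1 sign in all pairs, beside 22.2% of kept probes. Pool signals of AAPH and control overlapped for all 9, and were separate for 1.92% of all kept probes.

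The annotated genes whose ratios lay nearest to those of ARRB2 over the 8 arrays were ARPP21, DHODH, PLCH1, WIPF1 and MIR296. The measure was the root mean square difference of the log2 ratio, which was 0.15, 0.19, 0.26, 0.32 and 0.35 for these genes, against a median of 1.13 over 16901 annotated probes. Over swap pairs, ARPP21, a phosphoprotein best known from neurons, was at -1.11 ± 0.39 (SD, n = 4), and PLCH1, a phospholipase C, had -1.17 ± 0.48. DHODH, the mitochondrial dihydroorotate dehydrogenase, was at -0.93 ± 0.21, WIPF1, a binding partner of the actin regulator WASP, at -0.74 ± 0.23 and the probe named MIR296 at -0.93 ± 0.33. Within 0.5 of ARRB2 lay 40 of 32195 other kept probes (0.124%). The measure grows with a probe's own distance from 0, near which most kept probes lie. The median of 1.13 and this share thus restate the size of the ARRB2 ratio.

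The pool signals of these genes had a like order. ARPP21 signal was 10.92, 10.14, 8.27 and 9.25 in AAPH pools of pairs 1 to 4, and 11.60, 11.00, 9.70 and 10.71 in control pools. In AAPH pools all 5 genes had the order of ARRB2, with pair 1 highest and pair 3 lowest, and in control pools ARPP21, DHODH and MIR296 did, while PLCH1 and WIPF1 had pairs 2 and 4 exchanged. Other kept probes of the same genes did not share the pattern: the second ARPP21 probe was at 0.06 ± 0.09, above background on 6 arrays with either RNA, and the other WIPF1 probes were at -0.04 ± 0.24 and -0.10 ± 0.29, the last bright on all 8 arrays. ARRB2 has no other probe, so no measurement here tells whether the -1.02 of EMBV3_02329 would be seen elsewhere in its transcript. Whether the 6 probes share a target was not tested.

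**Figure D5:**
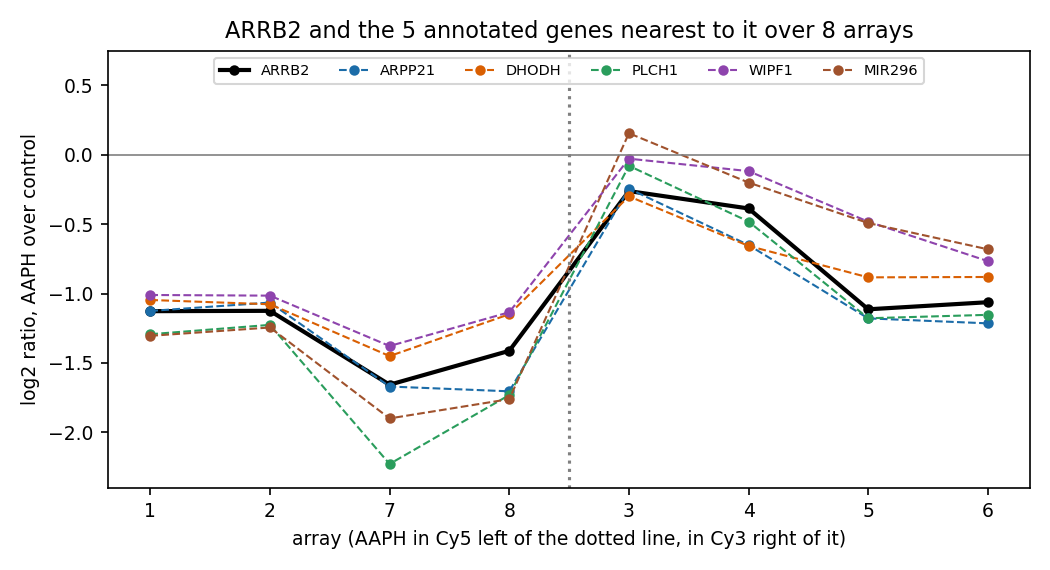
Log2 ratio of AAPH over control on each array for ARRB2 (black) and the 5 annotated genes nearest to it (coloured), with arrays grouped by the dye of AAPH RNA. Lines only join the values of a gene. All 6 are highest on array 3, and all but ARPP21 (array 8) are lowest on array 7.

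For TXNIP the nearest genes were TAF2, BCAR3, EFCAB7, HOMER2 and PLIN2, with root mean square differences of 0.14 to 0.18 over the 8 arrays. Within 0.5 of TXNIP lay 13150 of 32195 other kept probes (40.8%). Its ratios are nearer 0 than those of ARRB2, so the larger share follows from their size. PLIN2, which coats lipid droplets, was at 0.74, -0.07, -0.19 and 0.43 in pairs 1 to 4, and TAF2, a subunit of the general transcription factor TFIID, at 0.51, 0.02, -0.07 and 0.57.

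The proteins that act with arrestins were taken from lists chosen for their roles, with earlier results of these data known. Of 82 symbols 68 had a kept probe, and the brightest one stood for the gene. None of the 68 passed with limma over all probes, as for all 12406 genes (0%). At an unadjusted p under 0.05 there were 4 higher and 6 lower in AAPH, beside 7.67% higher and 7.36% lower over all genes. Their median ratio was 0.00, with 34 positive and 34 negative, beside a median of 0.01 over all genes. Values in the next paragraphs are mean log2 ratios of AAPH over control with the SD over 4 swap pairs. Where a named gene has other kept probes, their median ratio is given too. Several named genes exceeded background on only part of the arrays, and a small SD there describes a signal near background.

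Upstream of beta arrestins, receptor kinases phosphorylate activated receptors. Of 6 measured, 0 passed, 2 were positive and 4 negative, with a median of -0.07. GRK5 was at -0.21 ± 0.17, GRK4 at -0.17 ± 0.18 and GRK1, the rhodopsin kinase, at -0.10 ± 0.09, against 0.05 ± 0.07 for GRK6 and 0.02 ± 0.08 for GRK7. Of the 6 kinases, 0 exceeded background on all 8 arrays with both RNAs. Receptors linked with arrestins had a median of -0.02 over 7 genes, 2 positive and 5 negative. The chemokine receptor CXCR4 was at 0.71 ± 0.72, from 1.18 and 1.46 in pairs 1 and 2 and 0.11 and 0.07 in pairs 3 and 4, and its signal exceeded background on 5 arrays with either RNA. The vasopressin receptor AVPR2 was at 0.11 ± 0.02. F2RL1, a protease-activated receptor, was at -0.09 ± 0.22, and the adrenergic receptors ADRB1 and ADRB3 were at -0.06 ± 0.01 and -0.02 ± 0.32. ADRB1 signal exceeded background on 6 arrays with either RNA.

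Downstream of beta arrestins, clathrin, its adaptor and scission proteins had a median of -0.03 over 12 genes, 4 positive and 8 negative, with 0 called. AP2B1, the adaptor subunit that binds beta arrestins, was at -0.16 ± 0.16 (other probe -0.03), the clathrin light chain CLTA at -0.15 ± 0.21 (other probes -0.22) and the dynamin DNM2 at -0.13 ± 0.25. On the positive side the small GTPase ARF6 was at 0.07 ± 0.17, the adaptor subunit AP2A2 at 0.04 ± 0.21 (other probe -0.08) and the fusion ATPase NSF at 0.02 ± 0.20.

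Kinases and ubiquitin enzymes carried by beta arrestins had a median of 0.05 over 9 genes, 5 positive and 4 negative. MAP2K4, a kinase of the JNK cascade, was at 0.17 ± 0.06 and positive in 4 of 4 pairs, and MAP2K2, a kinase of the ERK cascade, at -0.20 ± 0.13 and negative in 4 of 4. The deubiquitinases USP33 and USP20 were at 0.16 ± 0.21 (other USP33 probe -0.04) and 0.09 ± 0.11. MAP3K5 (ASK1), the kinase that thioredoxin inhibits, was at -0.10 ± 0.26, and MAPK10 (JNK3) at -0.04 ± 0.28.

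HECT ubiquitin ligases that bind alpha arrestins had a median of 0.04 over 8 genes, 7 positive and 1 negative, with 0 called. NEDD4 was at 0.19 ± 0.39, ITCH, the ligase that acts on TXNIP, at 0.19 ± 0.47 (other probe 0.02), SMURF2 at 0.06 ± 0.21 and WWP1 at -0.09 ± 0.18. The largest single values came from 1 pair each, 0.78 for NEDD4 in pair 3 and 0.84 for ITCH in pair 4. Vesicle budding partners of ARRDC1 had a median of 0.10 over 7 genes, 4 positive and 3 negative, with 0 called. PDCD6IP (ALIX) was at 0.31 ± 0.32, the ESCRT subunit TSG101 at 0.16 ± 0.21 and the ATPase VPS4B at 0.16 ± 0.19 (other probes -0.16). STAM was at -0.12 ± 0.24, VPS4A at -0.11 ± 0.44 and HGS at -0.03 ± 0.16.

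Other proteins with an arrestin fold had a median of -0.06 over 5 genes, 2 positive and 3 negative. The brightest probe of the retromer subunit VPS26A was at 0.22 ± 0.16, while the median of its other probes was -0.18, of opposite sign. The visual arrestin ARR3 was at 0.08 ± 0.03, above background on 6 arrays with either RNA. DSCR3, a relative of VPS26, was at -0.18 ± 0.05, RGP1 at -0.08 ± 0.09 and VPS26B at -0.06 ± 0.34. SAG and ARRDC5 had a probe but none was kept.

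Around TXNIP, thioredoxins and their reductases had a median of 0.03 over 5 genes, 3 positive and 2 negative. The cytosolic TXN was at 0.13 ± 0.15, TXNRD3 at 0.12 ± 0.08 and the cytosolic reductase TXNRD1 at 0.03 ± 0.04 (other probe -0.11). The mitochondrial TXNRD2 was at -0.30 ± 0.14, negative in 4 of 4 pairs (other probe -0.12), and TXN2 at -0.11 ± 0.11 (other probes -0.16). TXNRD2 exceeded background on 6 arrays with AAPH RNA and 7 with control RNA, and TXNRD3 on 5 and 4.

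Glucose sensing regulators and targets had a median of 0.02 over 9 genes, 5 positive and 4 negative, with 0 called. DDIT4, a stress-induced inhibitor of mTORC1, was at 0.19 ± 0.37, the nuclear receptor PPARG at 0.15 ± 0.07, positive in 4 of 4 pairs, and MLXIPL (ChREBP) at 0.02 ± 0.13. PPARG signal exceeded background on 5 arrays with either RNA. MLX, the obligate partner in the transcription factor that drives TXNIP, was at -0.08, -0.35, -0.29 and -0.68 in pairs 1 to 4, a mean of -0.35 ± 0.25, but its other probe was at -0.06. The glucose transporter SLC2A1, which TXNIP removes from the cell surface, was at -0.22 ± 0.44, positive in pair 1 (other probe 0.01), and HK2, the hexokinase that phosphorylates glucose, at -0.20 ± 0.05 (other probes -0.19). MLXIP, the glucose-sensing partner of MLX, had no kept probe.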

How the data were processed

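Scanner files deposited by the authors give, per the file headers, each spot's mean foreground intensity and local background intensity for Cy3 and Cy5 (linear values). The authors' deposited log2 ratios, made with limma per the submitters' processing notes, were an alternative. They ran in the direction AAPH over control on all 8 arrays, with correlations to the scanner ratios of 0.974 to 0.994, slopes over bright probes of 0.941 to 1.01 and array medians of -0.0135, -0.00863, 0.0117, 0.00944, -0.0152, 0.00799, -0.0188 and -0.0197. Their normalization method remains unknown.

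Intensities were corrected with normexp (offset 50), normalized within arrays by loess with control spots at weight 0, and turned to AAPH over control (R 4.3.3, limma 3.58.1). For pool signals, Aquantile scaling followed. Background was set from 153 negative control spots on log2 corrected signals. Arrays 1 and 3, 2 and 4, 7 and 5, and 8 and 6 formed swap pairs 1 to 4. Deviations from the mean of each orientation correlated at 0.56, 0.508, 0.146 and 0.383 in these pairs over kept probes, and at -0.343 to 0.048 in the 12 others. Over all probes pair 3 was at 0.057, below the limit of 0.1. This pairing is not stated in the labels.

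limma (lmFit, eBayes) tested ratios against 0 over all kept probes with Benjamini-Hochberg adjustment, and was tested on simulated data. The labels do not tie pools to separate fertilization runs, and the spread behind each p-value may be partly technical. Of 43794 probes 21790 had 1 symbol, 0 several and 22004 none; all 7 member symbols are in the RefSeq gene table. The probe design's build and probe sequences were not used here. Members and lists were chosen with earlier results of these data known. Named were all arrestin probes, the partners with the largest ratios in each list (up to 3 per direction, brightest probe), and the 5 nearest genes of ARRB2 and TXNIP. Marker genes were named after their values were seen. A list of blood markers (5 kept genes, median ratio -0.08) was also read.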

Additional observations from a re-analysis of the deposited data

Results flagged for a closer look

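Among 31 sets of 4 values examined, 2 had 1 value far from the other 3, where chance gives about 1.55. The mean log2 ratio of the beta arrestins was -0.21 in swap pair 2, against -0.75 to -0.68 in the others, and ARRB1 was positive in that pair. The signal of ARRDC1 probe EMBV3_30637 in AAPH pools was 7.00 in swap pair 1, against 6.76 to 6.80 in the others, a probe above background on 5 of 8 arrays.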

How the results depend on the processing

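ARRB2 was negative under all 15 alternatives, from -1.31 within slides 78 and 79 to -0.72 within slide 26. For many of them the sign could not turn. Those that changed only the filter or the test left the ratio at -1.02. Those on part of the swap pairs averaged ratios that were all negative. The adjusted p of ARRB2 was 0.145 over all kept probes and 0.00377 to 0.545 under the alternatives. It passed under 2 of them at an unchanged ratio of -1.02. With every array of AAPH or of control RNA required above background, its adjusted p was 0.037, and 70 of 14304 probes (0.489%) were called. There limma was fitted anew on the fewer probes, so the variance estimates changed as well as the number of probes to adjust over. With 8 single arrays and a dye coefficient, the adjusted p of ARRB2 was 0.00377, and 936 probes were called. The dye coefficient analysis counts arrays that may share extracts as separate. All other alternatives gave 0 calls, including each swap pair left out, where ARRB2 ran from -1.13 to -0.90. Beta minus alpha ran from -0.83 to -0.48 across these alternatives. With alternatives chosen after seeing the data it was -0.60 without TXNIP and -0.23 without ARRB2. TXNIP remained positive (0.18 to 0.40), and ARRDC3 and both ARRDC4 probes kept their sign. ARRB1 ran from -0.338 without swap pair 2 to -0.00397 without swap pair 1, so its reported -0.17 rests on single pairs. ARRDC1 probe EMBV3_30941 turned to 0.0235 with median centring and 0.0511 within slide 26. With each swap pair left out it ran from -0.0578 to 0.0256 and EMBV3_30637 from -0.0951 to 0.0143, both turning without pair 4, and ARRDC2 ran from -0.0318 to 0.315, turning without pair 2. The cause was not tested. Dim arrestin signals were higher without background correction. No paired analysis was possible because the ratio on each array already pairs AAPH with control, and replicate numbers are not given in the labels.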
